A study of Mus musculus with 6 samples.

Results

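The mitochondrial ribosomal protein genes were taken as the protein-coding genes of GENCODE mouse release M21 whose symbols begin with Mrpl or Mrps followed by a number. There were 78 such genes among 21911 protein-coding genes, 49 named for the large subunit (Mrpl) and 29 named for the small subunit (Mrps). The rule uses symbols alone, but the gene set was picked for description with earlier results of these data known. H3K4me3, trimethylation of lysine 4 of histone H3 and a mark of active promoters, was measured by ChIP-Seq of crosslinked, micrococcal nuclease-digested chromatin in STHdh cells. These are conditionally immortalised mouse striatal progenitor lines, labelled as strain C57BL/6. The data were 6 peak lists, 1 for each condition, and all cells were held for 24 hours in DMEM with no serum.

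The Q7SST list came from STHdhQ7 cells, which have wild-type huntingtin, with vehicle. The Q111SST list came from STHdhQ111 cells, which are homozygous for a knocked-in mutant huntingtin with an expanded glutamine tract, with vehicle. The other 4 lists came from STHdhQ111 cells given 10 uM of cyproheptadine, loxapine, diacylglycerol kinase inhibitor II (DKI) or meclizine. The study placed cyproheptadine and loxapine together in its Group A and DKI and meclizine in its Group B. Q7SST and Q111SST are separate lines as well as separate genotypes, and these cannot be told apart here. Treatment was described as done in triplicate, but each condition gave 1 list and the sources used here do not state how replicates entered it. There was thus no replicate spread, no test between lists was possible, and every difference below is a description of 6 lists.

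Mitochondria carry their own ribosome, which translates the few messages of the mitochondrial genome into hydrophobic subunits of the respiratory chain and ATP synthase. Its RNAs come from mitochondrial DNA, but its proteins are encoded in the nucleus, made in the cytosol and imported. Some of these proteins have a bacterial counterpart, and others were added in the mitochondrial lineage. The genes are scattered over the chromosomes and need to be active together in any cell that respires, which places them among the housekeeping genes. By the list used here, 46 members had a bacterial counterpart and 32 were specific to mitochondria. Symbols do not always follow the structure: the proteins of Mrps18a and Mrps30 sit in the large subunit, and the protein of Mrps36 is now usually counted with the 2-oxoglutarate dehydrogenase complex.

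A list marked a member if it held a peak no farther than 1 kb from one of its annotated transcript starts. Its strength was the score percentile of its strongest such peak among all peaks of that list, so that 90 means a score above that of 90% of the list. Its width was the width of the same peak. Before the values, promoter sequences of 10 members are shown for the reader to refer back to. Mrpl42, Mrpl24 and Mrpl27 were among the 5 members with the strongest peaks, and Mrpl14, Mrpl49, Mrps7 and Mrps2 among the 5 with the weakest. Mrpl18 has the closest divergent neighbour that codes for protein, and Mrpl46 and Mrps11 lie head to head under 1 peak. Each run holds 200 bases, 170 before the RefSeq start site and 30 from it onwards, 5′ to 3′ on the strand of the gene, from GRCm38.p6. Capitals mark exact matches on either strand to letters taken for NRF1 (GCGCATGC), ETS factors (CCGGAAGT), YY1 (AAGATGGC), ZNF143 (ACTACAAT, or ACTACAAC as a second spelling) or the palindromic element TCGCGAGA.

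Mrpl42, chr10:95501920-95502119 (- strand): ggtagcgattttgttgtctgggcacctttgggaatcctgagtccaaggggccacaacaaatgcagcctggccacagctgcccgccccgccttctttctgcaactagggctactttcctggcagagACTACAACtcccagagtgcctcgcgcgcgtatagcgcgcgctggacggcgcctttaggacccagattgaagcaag
Mrpl24, chr3:87919374-87919573 (+ strand): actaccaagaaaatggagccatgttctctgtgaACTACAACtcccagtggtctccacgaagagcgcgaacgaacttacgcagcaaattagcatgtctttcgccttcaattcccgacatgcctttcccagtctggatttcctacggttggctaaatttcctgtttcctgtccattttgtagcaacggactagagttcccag
Mrpl27, chr11:94653621-94653820 (+ strand): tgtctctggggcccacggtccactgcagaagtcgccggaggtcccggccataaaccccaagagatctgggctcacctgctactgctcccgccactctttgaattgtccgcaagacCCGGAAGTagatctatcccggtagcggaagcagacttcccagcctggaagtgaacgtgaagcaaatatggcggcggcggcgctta
Mrpl14, chr17:45686179-45686378 (+ strand): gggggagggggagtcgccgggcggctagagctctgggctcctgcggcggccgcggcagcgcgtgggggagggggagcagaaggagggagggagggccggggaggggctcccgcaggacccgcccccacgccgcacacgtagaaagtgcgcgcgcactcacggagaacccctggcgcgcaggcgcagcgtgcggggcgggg
Mrpl49, chr19:6057726-6057925 (- strand): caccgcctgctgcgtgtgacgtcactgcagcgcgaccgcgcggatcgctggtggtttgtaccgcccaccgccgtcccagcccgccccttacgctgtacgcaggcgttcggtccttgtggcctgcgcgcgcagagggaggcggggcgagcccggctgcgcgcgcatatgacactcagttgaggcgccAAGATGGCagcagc
Mrps7, chr11:115603970-115604169 (+ strand): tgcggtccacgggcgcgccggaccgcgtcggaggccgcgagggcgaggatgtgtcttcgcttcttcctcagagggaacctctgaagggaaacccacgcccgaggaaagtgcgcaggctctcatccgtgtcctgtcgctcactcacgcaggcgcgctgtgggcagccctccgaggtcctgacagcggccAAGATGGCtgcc
Mrps2, chr2:28467896-28468095 (+ strand): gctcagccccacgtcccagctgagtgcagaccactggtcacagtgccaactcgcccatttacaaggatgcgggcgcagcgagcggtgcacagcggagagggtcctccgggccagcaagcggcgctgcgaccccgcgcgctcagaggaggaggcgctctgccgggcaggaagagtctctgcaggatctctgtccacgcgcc
Mrpl18, chr17:12916062-12916261 (- strand): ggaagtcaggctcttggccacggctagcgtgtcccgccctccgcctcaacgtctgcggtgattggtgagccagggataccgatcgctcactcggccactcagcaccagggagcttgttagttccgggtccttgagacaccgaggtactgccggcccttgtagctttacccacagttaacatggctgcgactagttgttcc
Mrpl46, chr7:78783060-78783259 (- strand): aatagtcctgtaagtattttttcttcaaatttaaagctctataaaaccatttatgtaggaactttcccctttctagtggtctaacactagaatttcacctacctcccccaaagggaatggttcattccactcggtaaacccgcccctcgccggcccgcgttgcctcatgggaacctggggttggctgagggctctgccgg
Mrps11, chr7:78782961-78783160 (+ strand): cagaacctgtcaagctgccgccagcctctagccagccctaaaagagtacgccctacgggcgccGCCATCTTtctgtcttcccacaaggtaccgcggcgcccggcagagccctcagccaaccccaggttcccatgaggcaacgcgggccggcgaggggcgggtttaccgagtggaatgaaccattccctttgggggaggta

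The stretches of Mrpl46 and Mrps11 overlap and are read on opposite strands. The capitals are the second ZNF143 spelling in Mrpl42 and Mrpl24 and the ETS letters in Mrpl27, all upstream of the start. In Mrpl49 and Mrps7 they are the YY1 letters, which contain ATG, just downstream of it. Mrps11 holds the same letters on the other strand, upstream. Mrpl14, Mrps2, Mrpl18 and Mrpl46 have no capitals. The RefSeq start of Mrps7 lay 215 bp and that of Mrpl18 254 bp downstream of the principal start in GENCODE, so for these 2 genes the run shows a start inside the peak but not the first one annotated.

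The lists held between 30758 peaks with DKI and 45564 with loxapine. The number of reads behind each list is unknown, since the files hold peaks alone. Of 10 marker genes of other tissues, 0 were marked in 5 of the lists and 1, Mbp, with meclizine. Of 7 neural progenitor markers 4 to 6 were marked in each list, Vim, Notch1 and Hes1 in all 6, and of 6 striatal neuron markers 1 to 3, Foxp1 in all 6.

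All 78 members were marked in every list, so that 78 of 78 (95% Wilson interval 95.3% to 100%, counting error only) carried the mark in wild-type cells, in mutant cells and under each compound. Among all protein-coding genes the share was 58.6% in Q7SST and 57.1% in Q111SST, and 54.1%, 56.9%, 54.6% and 57.3% with cyproheptadine, loxapine, DKI and meclizine, and 52.3% were marked in all 6. The 36 complex I subunit genes of the Ndufa, Ndufb, Ndufc, Ndufs and Ndufv series were also all marked in every list. Genes for the ribosome of the cytoplasm, here called cytosolic ribosomal protein genes, were taken by symbol alone. Their symbols begin with Rpl, Rps or Rplp followed by a number, without Rps6k. This rule can also take in genes whose products are not part of that ribosome. Of these 91 genes, 81 were marked in all 6.

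No member was gained or lost against Q111SST in any comparison. Over all protein-coding genes 5.56% were gained or lost in Q7SST, and 3.55%, 2.12%, 3.07% and 1.71% with cyproheptadine, loxapine, DKI and meclizine. Where the lists differed at these genes was therefore in the strength and the extent of the peaks.

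The peaks of the members stood high in each list. The median percentile was 88.0 in Q7SST and 89.7 in Q111SST, and 82.2, 88.0, 82.2 and 88.3 with cyproheptadine, loxapine, DKI and meclizine. Over all marked protein-coding genes it was 80.4, 82.6, 79.5, 83.0, 75.8 and 80.3 in the same order. The members lay above by between 2.67 points with cyproheptadine and 7.96 points with meclizine. In Q111SST, 39 members (50%) stood at or above the percentile of 90, against 29.7% of all marked genes, and 6 (7.69%) stood below 75, against 33.1%. The cytosolic ribosomal protein genes lay lower than the members, with a median over genes of 80.5 for the median of the 6 lists, against 87.0 for the members and 87.7 for complex I.

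**Figure D1:**
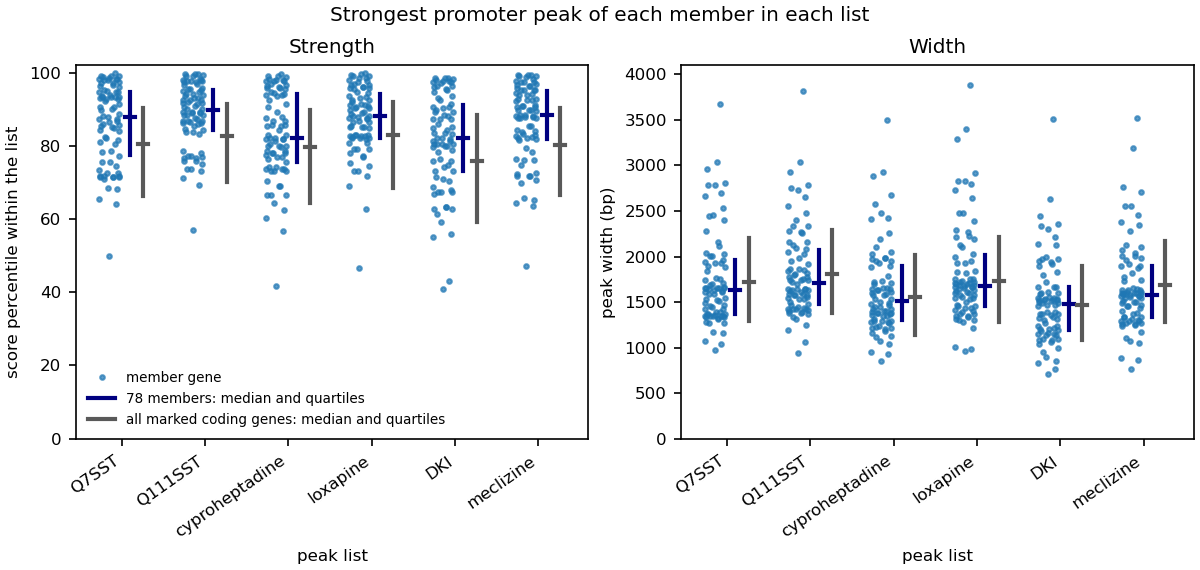
Score percentile within the list (left) and width in bp (right) of the strongest promoter peak of each of the 78 members (points) in each of the 6 lists, with medians (ticks) and quartiles (bars) of the members and of all marked protein-coding genes. The members' median percentile is above that of all genes in each list, while their median width is below it except with DKI.

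The 5 strongest members all belonged to the large subunit. Mrpl42, a protein specific to mitochondria, stood at 99.8 in Q7SST and 99.6 in Q111SST, and 99.5, 99.6, 98.6 and 99.2 with cyproheptadine, loxapine, DKI and meclizine. Its Q111SST peak, at chr10:95500482-95501956, covered exon, untranslated and intron sequence at the start of the gene and reached only 16 bp upstream of it. Mrpl35, Mrpl24, Mrpl15 and Mrpl27, all with a bacterial counterpart, followed with medians over the 6 lists of 99.1, 99.0, 98.2 and 98.1. The protein of Mrpl27 reaches towards the peptidyl transferase centre, where peptide bonds are made. The ranges of these 5 genes overlap, so their order is not distinct.

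Mrps34 was the weakest member. This mitochondrion-specific protein of the small subunit had percentiles of 50.0 in Q7SST and 56.9 in Q111SST, and 41.8, 46.7, 43.0 and 47.1 with cyproheptadine, loxapine, DKI and meclizine. Its highest value lay below the lowest of 73 other members. The 4 with a value under it in some list were Mrpl4, Mrpl41, Mrps7 and Mrps2, and Mrps2 stood below Mrps34 with DKI. Its peak was wide, at 2735 bp in Q111SST (chr17:24894337-24897071), and also lay over starts of Eme2 and Nme3. Next from the bottom came Mrpl14, Mrpl49, Mrps7 and Mrps2, with medians of 67.7, 68.1, 68.6 and 69.1 and overlapping ranges.

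The subunits differed little in strength. The median over genes of the median of the 6 lists was 86.3 for the large subunit and 87.7 for the small subunit, and it was 88.1 for members with a bacterial counterpart and 85.2 for those without. The 3 Mrps18 paralogs lay apart. All are related to the same bacterial ribosomal protein, but Mrps18c alone was listed with the members that have a bacterial counterpart and the other two with the mitochondrion-specific ones. Mrps18c had a median of 96.5, Mrps18a 84.2 and Mrps18b 70.5. Mrps18c ranged from 94.6 to 99.1 over the lists, Mrps18a from 71.5 to 90.4 and Mrps18b from 62.4 to 73.1, so that Mrps18c did not overlap the others while Mrps18a and Mrps18b did.

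**Figure D2:**
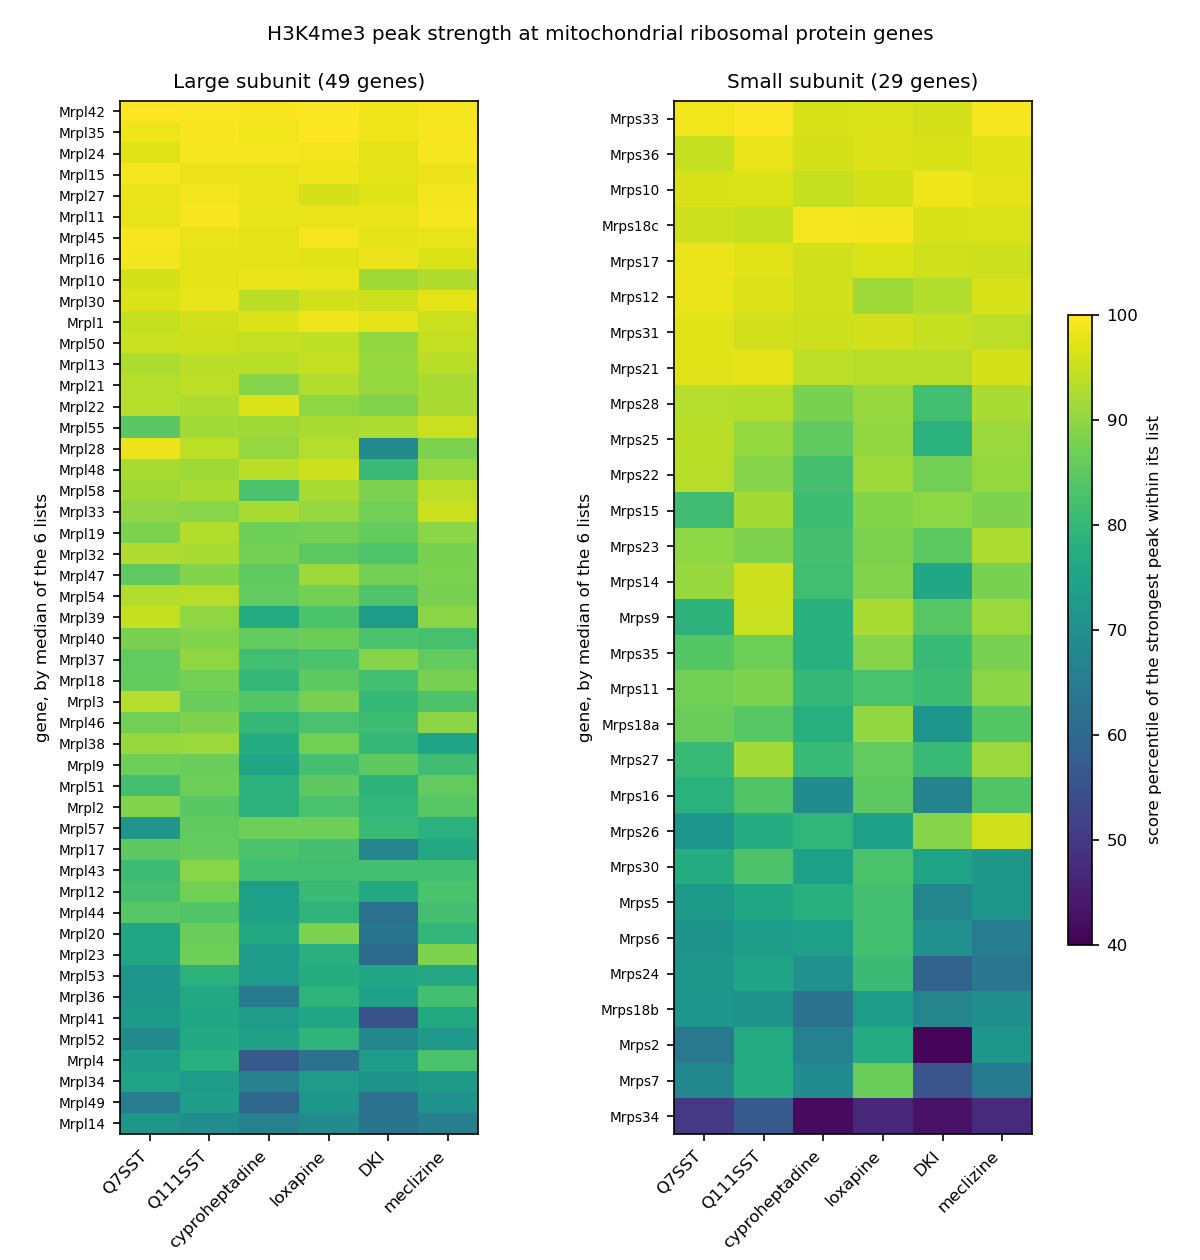
Score percentile of the strongest promoter peak of each member (rows, sorted by the median of the 6 lists within each subunit) in each list (columns), on a colour scale from 40 to 100. Rows keep much of their colour across the lists, with Mrpl42 at the top of the large subunit and Mrps34 at the bottom of the small subunit, and isolated dark cells with DKI at Mrps2, Mrpl41 and Mrpl28.

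The order of the members was much alike in all lists. Across the 78 genes, Spearman's rho between 2 lists lay between 0.79 and 0.90 in the 15 pairs, and between 0.78 and 0.92 over the genes marked in all 6. Genes are not independent replicates and all lists come from related cells, so this is a description. From its lowest to its highest list a member moved by a median of 10.2 points, against 14.5 for the genes marked in all 6 lists. The range was below 10 points in 38 members and at least 20 points in 11. Of the 11455 genes marked in all 6 lists, 3473 and 3631 had such ranges. In Q111SST 25.6% of members stood above 95, near the top of the scale, against 14.4% of all marked genes. The part of this in the smaller ranges was not tested. Mrpl42 moved least, by 1.23 points, and Mrps2 most, by 36.1.

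In width the members were close to other marked genes or a little narrower. Their median width was 1635.5 bp in Q7SST and 1707.5 bp in Q111SST, and 1512.5, 1681, 1477.5 and 1581.5 bp with cyproheptadine, loxapine, DKI and meclizine. All marked genes had 1724, 1808, 1553, 1733, 1469 and 1687 bp. Cytosolic ribosomal protein genes had wider peaks, with a median over genes of 1938 bp for the median of the 6 lists, against 1590 bp for the members. Width and percentile ran weakly opposite ways within the members, with Spearman's rho between -0.28 and -0.08 across 78 genes, where all marked genes gave 0.09 to 0.14.

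Mrps18b had the widest peak, with widths of 3679 bp in Q7SST and 3814 bp in Q111SST, and 3501, 3882, 3513 and 3525 bp with cyproheptadine, loxapine, DKI and meclizine. It reached 2830 bp upstream of the Mrps18b start in Q111SST, over the start of Ppp1r10, a regulatory subunit of protein phosphatase. The next widest were Mrpl51, Mrpl18, Mrpl54 and Mrpl40, with medians of 2860, 2781.5, 2703 and 2615 bp. Each of these 5 shared its peak with the start of another protein-coding gene: Ppp1r10, Ncapd2, Tcp1, Apba3 and Hira. The narrowest were Mrpl23, Mrpl22, Mrps2, Mrpl28 and Mrpl33, with medians of 948.5, 971.5, 1046, 1149 and 1197.5 bp. None of these 5 had a divergent protein-coding neighbour.

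A divergent neighbour, a gene on the opposite strand that starts within 1 kb, was common. Of the 78 members, 32 (41.0%, Wilson interval 30.8% to 52.1%) had one that codes for protein, against 10.5% of all protein-coding genes and 18.6% of those marked in all 6 lists. Within 500 bp the count was 29 (37.2%, against 9.20% and 16.6%). Complex I genes had such a neighbour in 14 of 36 (38.9%) and cytosolic ribosomal protein genes in 14 of 91 (15.4%). Of the 32 members, 20 started between 0 and 200 bp from the neighbour and 9 overlapped it at their 5′ ends. Counting neighbours of any type, 36 members had one (46.2%). The shares were 19.4% of all protein-coding genes and 31.0% of those marked in all 6 lists.

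The closest protein-coding pairs were Mrpl18 with Tcp1, a subunit of the cytosolic chaperonin, overlapping by 16 bp, and Mrpl54 with Apba3, 26 bp apart. Mrpl36 overlapped Ndufs6, a complex I subunit, by 29 bp. Mrps18c lay 29 bp from Helq, a DNA helicase, and Mrps34 29 bp from Eme2, a subunit of a DNA endonuclease. Several partners also serve mitochondria. Mrps12 faced Sars2, the mitochondrial seryl-tRNA synthetase, at 182 bp, Mrpl43 faced Twnk, the helicase of mitochondrial DNA, at 116 bp, and Mrpl47 overlapped Ndufb5, another complex I subunit, by 76 bp. In 1 pair both genes were members: Mrpl46 and Mrps11, 30 bp apart at chr7:78782242-78784105 in Q111SST, had 1 peak in every list. Its percentile ranged over the lists from 80.03 with cyproheptadine to 89.7 with meclizine, and was 87.3 in Q7SST and 88.4 in Q111SST. These are 1 measurement for 2 members, and a peak over a shared start cannot be assigned to either gene.

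The pairs showed in the shape of the peaks. In Q111SST a peak covered the principal start of 77 members. Its median reach was 973.5 bp upstream and 993 bp downstream in the 32 members with a divergent protein-coding neighbour, and 438 bp upstream and 1100 bp downstream in those with no divergent neighbour. The strongest peaks had median widths of 2088.5 and 1566 bp. All protein-coding genes had 1110.5 bp upstream and 1056 bp downstream with such a neighbour, and 512 and 1222 bp without one. The members and the other genes thus had the same order of shapes. Neighbours were taken at any annotated start of a gene, while reach was measured at the principal start. Median percentiles of the members in Q111SST were 88.6 with such a neighbour and 91.4 without any, while over all protein-coding genes they were in the other order, 85.2 and 81.6.

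**Figure D3:**
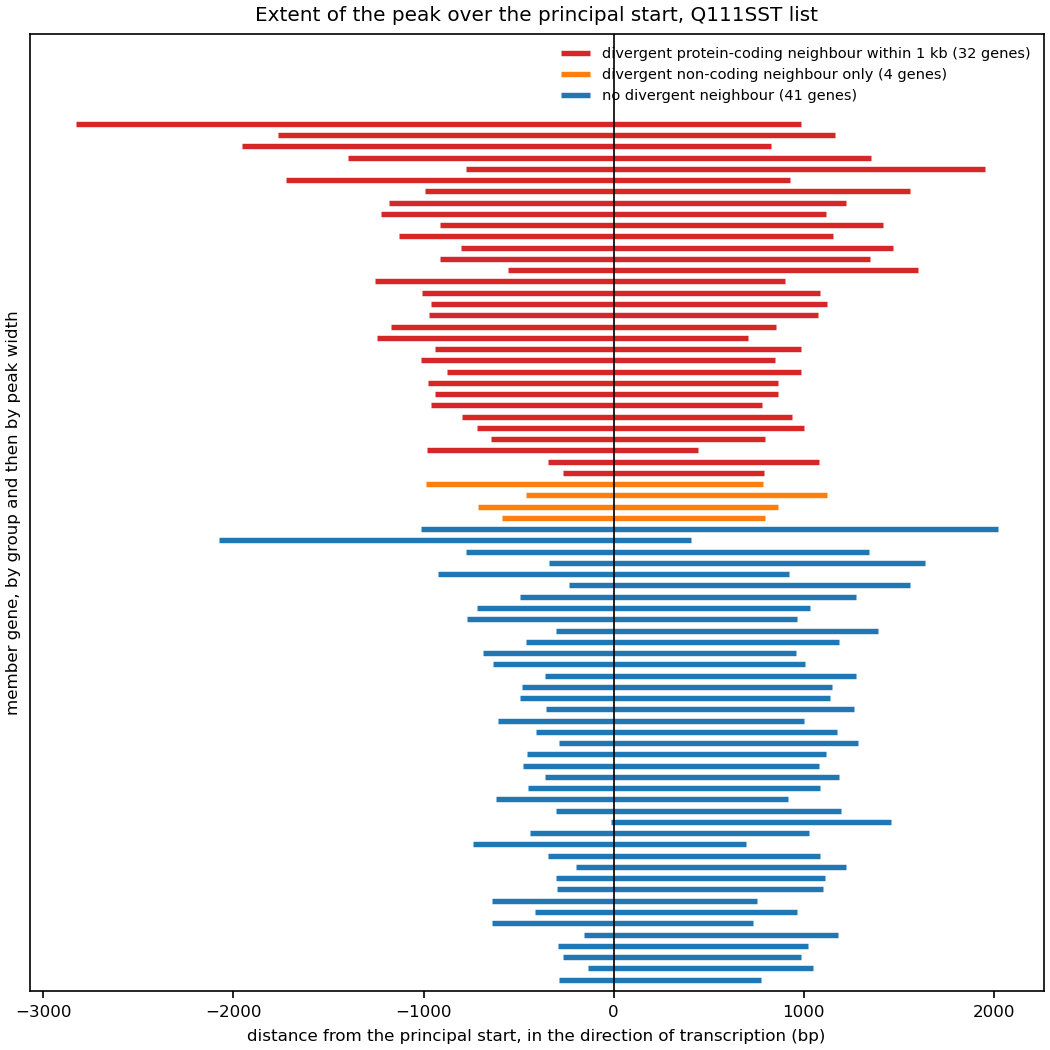
Extent of the peak over the principal start of 77 members in the Q111SST list, as distance in bp from the start in the direction of transcription, each line 1 member. Red lines (32 members with a divergent protein-coding neighbour within 1 kb) reach about as far upstream as downstream, and blue lines (41 with no divergent neighbour) lie mostly downstream. Orange lines are 4 members with a divergent non-coding neighbour only.

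Of the 78 members, 69 had an entry in the RefSeq promoter table, with 75 promoters of 300 bases (250 before the start and 50 after). Mrpl4, Mrpl13, Mrpl15, Mrpl19, Mrpl38, Mrpl54, Mrps28, Mrps34 and Mrps35 had none. Their median GC content was 58.7%, against 52.7% over all 32851 promoters of the table and 61.3% over the 11554 promoters of genes marked in all 6 lists. The ratio of observed to expected CpG was 0.82, against 0.38 and 0.77. The YY1 letters were in 12 of the 75 (16%, against 2.75% of all promoters and 4.59% of those of marked genes), in Mrpl32, Mrpl35, Mrpl36, Mrpl37, Mrpl42, Mrpl49, Mrps7, Mrps11, Mrps12, Mrps18a, Mrps24 and Mrps27. The ETS letters were also in 12 (16%, against 3.89% and 8.60%), among them Mrpl3, Mrpl27, Mrps18c and Mrps26. In the promoters of complex I genes the YY1 letters were in 7 of 34 (20.6%) and the ETS letters in 1 (2.94%), and in those of cytosolic ribosomal protein genes they were in 8 (10.4%) and 11 (14.3%) of 77.

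The NRF1 letters, named for a regulator of many nuclear genes of mitochondria, were in 8 promoters (10.7%, against 2.71% and 5.56%): Mrpl9, Mrpl10, Mrpl17, Mrpl22, Mrpl32, Mrpl33, Mrpl39 and Mrps18b. The share was 8.82% for complex I genes and 3.90% for cytosolic ribosomal protein genes. The GC box GGGCGG of SP factors was in 39 (52%, against 35.7% and 64.5%). The E-box CACGTG was in 7 (9.33%, against 7.15% and 9.97%), TATAAA in 5 (6.67%, against 13.6% and 6.81%) and TCGCGAGA in 1, that of Mrpl57 (1.33%, against 0.995% and 2.28%, and 15.6% for cytosolic ribosomal protein genes). The ZNF143 letters ACTACAAT were in 0 (0.737% and 1.13%). The second spelling, added after the promoters had been seen, was in 5 (6.67%, against 1.04% and 1.62%), of Mrpl16, Mrpl24, Mrpl34, Mrpl42 and Mrpl50.

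Strong and weak members both held these letters. The median over promoters of the median percentile of their gene in the 6 lists, which counts a member with several promoters more than once, was 84.6 with the YY1 letters (from 68.1 at Mrpl49 to 99.5 at Mrpl42) and 87.7 without, 85.5 with the ETS letters and 87.6 without, and 87.0 with the NRF1 letters (from 70.5 at Mrps18b) and 86.1 without. It was 97.6 over the 5 promoters with the second ZNF143 spelling and 85.8 over the others, with values of 99.5 at Mrpl42, 99.0 at Mrpl24, 97.6 at Mrpl16, 94.5 at Mrpl50 and 72.6 at Mrpl34. This spelling was chosen after the promoter sequences and peak strengths had been seen. A match is a description of letters and does not show that a factor binds.

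The comparison of wild-type with mutant cells under vehicle asks how the knock-in line differs at these promoters. Members were counted when their percentile differed by at least 5 points. In Q7SST, 1 member stood higher than in Q111SST and 18 lower, while of all genes marked in both 17.7% stood higher and 27.3% lower. The median difference was -1.05 points, the same as over all genes to this precision. In Q111SST 20 of the 78 stood above 95 (25.6%, against 14.4% of all marked genes) and could not gain 5 points, and the part of this in the count of members higher was not tested.

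Mrps9, with a bacterial counterpart in the head of the small subunit, differed most. It stood at 78.7 in Q7SST and 94.9 in Q111SST, and at 78.1, 92.5, 84.4 and 91.1 with cyproheptadine, loxapine, DKI and meclizine. The next lowest differences were -14.0 points at Mrpl57, a mitochondrion-specific protein, and -12.9 at Mrps2. Mrpl3 was the 1 member higher by the rule, at 93.2 against 86.5, followed by Mrpl39 (94.8 against 90.04) and Mrps22 (93.6 against 89.1). Widths were counted when a peak was at least 25% wider than in Q111SST, or narrower, at 80% of its width or less. They differed less, with 0 members wider in Q7SST by the rule and 4 narrower, against 9.55% and 12.8% of all genes. Mrpl28 had the smallest ratio, at 0.73 (971 against 1337 bp), and Mrpl48 the next, at 0.74, while the highest ratios were 1.24 at Mrpl23 and 1.23 at Mrpl57.

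**Figure D4:**
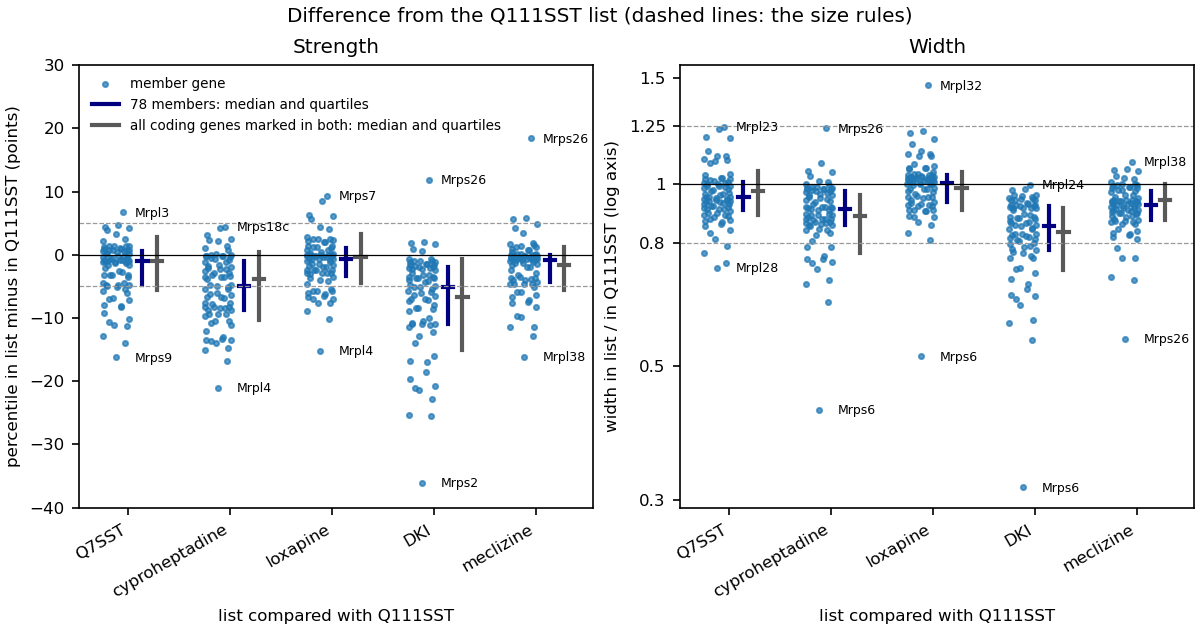
Difference in percentile (left, points) and ratio of width (right, log axis) of each member between a list and Q111SST, with medians (ticks) and quartiles (bars) of the 78 members and of all protein-coding genes marked in both lists. Dashed lines are the size rules, and the members farthest from no change are named, such as Mrps2 with DKI (-36.1 points) and Mrps6 in width.

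The 4 compound lists were compared with vehicle in mutant cells, and all were set against the same Q111SST list, so they are not independent of each other. With cyproheptadine 0 members stood higher by 5 points and 38 lower, against 9.54% and 44.5% of all genes, with a median difference of -4.87 points (all genes -3.79). The lowest differences were -21.1 points at Mrpl4, whose protein lines the exit tunnel for the nascent chain, -16.8 at Mrps9 and -15.1 at Mrps34. The highest differences, below the rule, were 4.44 points at Mrps18c, 4.28 at Mrpl22 and 3.14 at Mrpl33. The peak was wider by the rule in 0 members and narrower in 12, against 1.65% and 29.1% of all genes, with the smallest ratios at Mrps6 (0.42) and Mrpl28 (0.64). The highest ratios were 1.24 at Mrps26 and 1.08 at Mrpl11.

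With loxapine 5 members stood higher and 15 lower, against 18.2% and 22.6% of all genes, with a median difference of -0.70 points (all genes -0.39). The highest were Mrps7, a protein of the head of the small subunit (86.5 against 77.3 in Q111SST), Mrps6 (82.1 against 73.6) and Mrps5 (82.1 against 75.8). The loxapine value of Mrps6 is that of a peak beginning 709 bp downstream of its start, where Q111SST had 1 peak over the start. All 5 were named for the small subunit, as are 29 of the 78 members. The protein of 1 of them, Mrps18a, sits in the large subunit. The lowest differences were -15.2 points at Mrpl4, -10.2 at Mrps34 and -8.84 at Mrpl23. The peak was wider in 1 member, Mrpl32 (3395 against 2330 bp), and narrower in 1, Mrps6 (ratio 0.52), against 5.26% and 13.5% of all genes. The next ratios were 1.23 at Mrps7 and 0.81 at Mrpl22.

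With DKI 1 member stood higher and 40 lower, against 8.29% and 56.3% of all genes, with a median difference of -5.08 points (all genes -6.68). The lowest differences were -36.1 points at Mrps2, -25.5 at Mrpl23, whose protein stands at the tunnel exit, and -25.4 at Mrpl28. The member higher was Mrps26, by 11.9 points, and the next were Mrpl1 (2.01) and Mrps10 (1.80). By the width rule the peak was wider in 0 members and narrower in 25, against 2.16% and 40.5% of all genes. The median ratio to the Q111SST width was 0.85 for the members and 0.83 for all genes. The ratio was highest at Mrpl24 (0.998) and Mrps10 (0.98) and lowest at Mrps6 (0.31) and Mrps26 (0.55). The DKI list was also the shortest, and the part of its length in these values was not tested beyond the lists of equal size given next.

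With meclizine 3 members stood higher and 15 lower, against 10.5% and 28% of all genes, with a median difference of -0.78 points (all genes -1.56). Mrps26 was higher by 18.4 points, Mrpl33 by 5.87 and Mrpl36 by 5.602. The lowest differences were -16.1 points at Mrpl38, -12.8 at Mrps7 and -11.5 at Mrps24. The peak was wider in 0 members and narrower in 6, against 5.96% and 12.5% of all genes, with the smallest ratios at Mrps26 (0.56) and Mrpl22 (0.69) and the highest at Mrpl38 (1.09) and Mrpl11 (1.06).

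The counts of members higher and lower depended on how the lists were ranked. When each list was cut to its 30758 strongest peaks, 6 members were higher and 21 lower in Q7SST, 6 and 29 under cyproheptadine, 5 and 29 under loxapine, 5 and 24 under DKI, 5 and 19 under meclizine. Over all genes the shares in these cut lists were 23% higher and 27.9% lower in Q7SST, and 21.4% and 32.3%, 15.6% and 39.2%, 21.6% and 37.9%, and 15.9% and 28.6% in the same order of compounds. When peaks scoring below 47, the pooled median, were left out, the counts were 12 and 22 in Q7SST, 3 and 52 under cyproheptadine, 15 and 23 under loxapine, 1 and 48 under DKI, and 17 and 16 under meclizine, where the balance of directions turned over. All genes gave 33.2% and 29.1% in Q7SST, 15.2% and 58.3%, 32.1% and 28.8%, 16.5% and 59.1%, and 32.6% and 23.1%. More genes were thus higher than lower under meclizine over all genes as well. The same held over all genes in Q7SST and under loxapine, where more members were lower than higher.

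The peaks of 6 members, chosen after their values were seen, are described in every list. Mrps6, with a bacterial counterpart in the platform of the small subunit, had 1 peak over its start of 3041 bp in Q7SST, 3035 bp in Q111SST and 3191 bp with meclizine. With cyproheptadine, loxapine and DKI there were instead 2 peaks with the start between them. Relative to the start, the upstream one ended at -318, -149 and -365 bp and the downstream one began at 709, 709 and 710 bp. The Q111SST peak also lay over starts of Slc5a3, an inositol transporter gene, and Gm49711. The low width ratios of Mrps6, and its percentiles with these compounds, are those of the stronger, downstream piece.

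Mrps26, specific to mitochondria, had a peak of 1650 bp in Q7SST, 1380 bp in Q111SST, 1707 bp with cyproheptadine and 1637 bp with loxapine, but of 761 bp with DKI and 766 bp with meclizine. Its percentile was 71.5, 77.3, 79.5 and 74.4 in the first 4 and 89.1 and 95.7 in the last 2. The groups of lists do not overlap in either measure, and the narrow peaks were the strong ones. The downstream edge lay 794 to 1138 bp from the start in the first 4 and 370 and 259 bp in the last 2. DKI and meclizine are the compounds of Group B, with 1 list each.

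Mrpl57 had its upstream edge 1741 bp from the start in Q7SST, 1181 bp in Q111SST and 1674 bp with loxapine, and 690, 730 and 749 bp with cyproheptadine, DKI and meclizine. Its downstream edge lay 1222 to 1247 bp from the start in all 6. The upstream part covers its divergent neighbour Ska3, a kinetochore gene, 71 bp away, so only the side of the neighbour differed. Mrps2 had percentiles of 64.0 in Q7SST and 76.9 in Q111SST, and 66.5, 76.8, 40.8 and 71.8 with cyproheptadine, loxapine, DKI and meclizine. With DKI its peak began 35 bp downstream of the start, and in the other 5 lists 199 to 304 bp upstream.

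Mrpl38 had its peak over the start in Q111SST, with loxapine and with meclizine, reaching 304, 390 and 301 bp upstream, and began 50, 62 and 40 bp downstream of it in Q7SST, with cyproheptadine and with DKI. Mrpl28 had percentiles of 98.2, 94.0, 90.5, 93.3, 68.6 and 88.1 in the order Q7SST, Q111SST, cyproheptadine, loxapine, DKI and meclizine, low with DKI alone. Mrpl23 also had a peak that missed the principal start, by 141 to 182 bp, in all lists but Q7SST. The strongest peak of Mrpl48 lay at its outermost start, 25199 bp upstream of the principal one, in all 6 lists. Mrpl48 overlaps its divergent neighbour Rab6a by 611 bp. No Rab6a start lay under that peak, but its assignment to Mrpl48 was not tested.

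**Figure D5:**
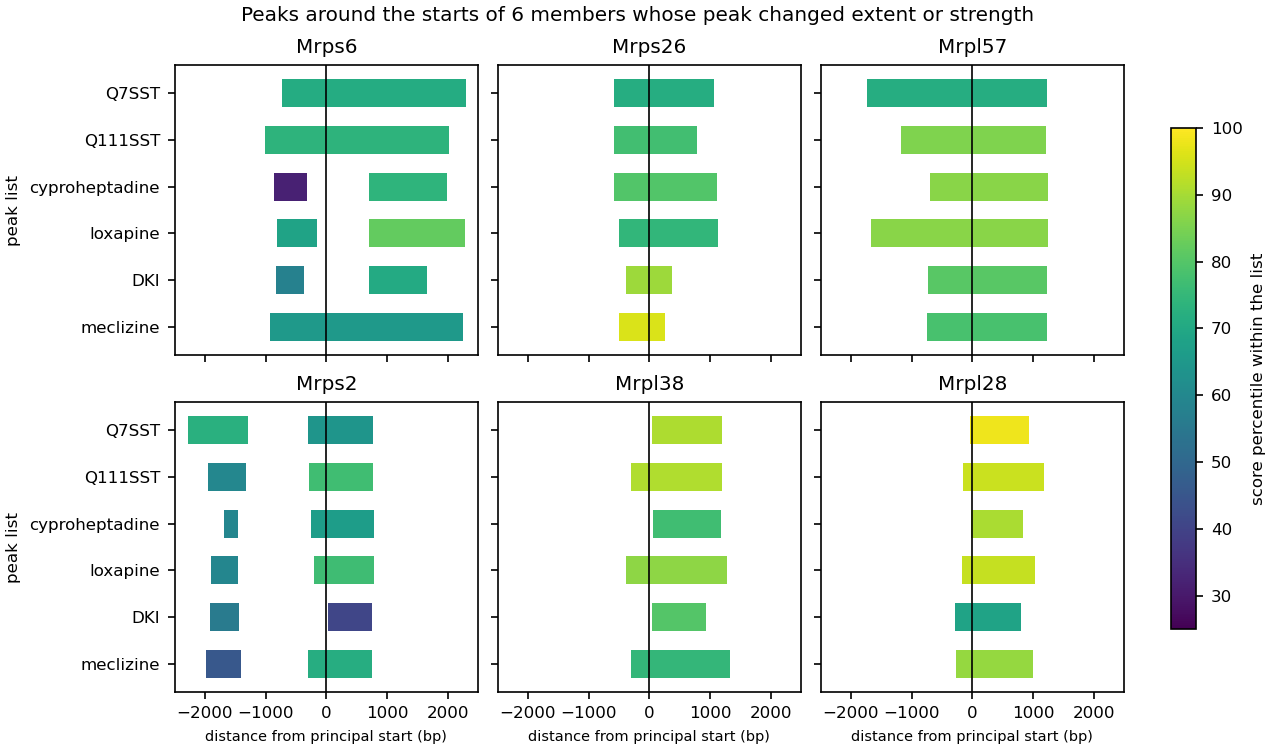
Peaks around the principal start of Mrps6, Mrps26, Mrpl57, Mrps2, Mrpl38 and Mrpl28 in each list, as distance in bp from the start in the direction of transcription, coloured by score percentile within the list. The peak at Mrps6 is in 2 pieces with cyproheptadine, loxapine and DKI, and that at Mrps26 is short with DKI (761 bp) and meclizine (766 bp).

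Which list held a member's highest or lowest percentile was also counted. Q7SST was highest for 18 members and lowest for 10 (all genes marked in the 6 lists 21.1% and 15.1%), and Q111SST highest for 26 and lowest for 1, Mrps18c (26.2% and 4.68%). Cyproheptadine was highest for 4 and lowest for 25 (8.04% and 22.3%), and loxapine highest for 16 and lowest for 3 (25.2% and 5.66%). DKI was highest for 1, Mrps10, and lowest for 32 (7.84% and 45.2%), and meclizine highest for 13 and lowest for 7 (11.7% and 7.1%). As shares of the 78 these were 23.1% and 12.8% in Q7SST and 33.3% and 1.28% in Q111SST. With cyproheptadine, loxapine, DKI and meclizine they were 5.13% and 32.1%, 20.5% and 3.85%, 1.28% and 41.0%, and 16.7% and 8.97%. Differences from the shares over all genes were not tested, and this count was not repeated in lists of equal size.

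Other genes of mitochondrial translation were marked nearly without exception. The 5 further mitoribosome proteins without an Mrp symbol, the 10 translation factors and the 17 mitochondrial tRNA synthetases were all marked in all 6 lists, as were 22 of 23 assembly factors. The exception was Mettl15, a methyltransferase of the small subunit RNA, which had no peak with loxapine and percentiles of 51.7 in Q7SST, 22.4 in Q111SST, 14.4 with cyproheptadine, 28.1 with DKI and 26.3 with meclizine. Medians over genes of the median of the 6 lists were 84.6 for the further proteins, 92.9 for the factors, 87.2 for the synthetases and 89.3 for the assembly factors, against 87.0 for the members. Dap3, a GTP-binding protein of the small subunit, had a median of 98.7, Tufm, the elongation factor that brings tRNA to the ribosome, 64.3, and Fastkd2, an RNA-binding assembly factor, 99.5.

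The counts of these genes that differed from Q111SST are read against the shares over all genes. Those were 17.7% higher and 27.3% lower in Q7SST, and 9.54% and 44.5%, 18.2% and 22.6%, 8.29% and 56.3%, and 10.5% and 28% with cyproheptadine, loxapine, DKI and meclizine. Of the 10 translation factors, 1 stood higher by 5 points and 1 lower in Q7SST, and 0 and 5, 0 and 3, 0 and 5, and 0 and 3 in the order cyproheptadine, loxapine, DKI and meclizine. Of the 17 synthetases, 1 stood higher and 3 lower in Q7SST, and, in that order of compounds, 1 and 6, 2 and 5, 1 and 10, and 1 and 4. Of the 23 assembly factors, 1 stood higher and 5 lower in Q7SST, and 2 and 10, 2 and 2 (of 22), 2 and 9, and 1 and 7 with the compounds. Of the 5 further mitoribosome proteins, 0 stood higher and 1 lower in Q7SST, and 1 and 1, 2 and 1, 0 and 1, and 0 and 1 with the compounds. With lists this short, nothing particular to them is read from these counts. The largest difference among the factors was at Gfm1, an elongation factor, which stood at 82.3 in Q111SST and 55.1 with DKI.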

How the data were processed

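H3K4me3 ChIP-Seq peak lists of 6 samples were used, 1 per condition, grouped by the sample labels. The submitters' processing notes name Trimmomatic 0.36, Bowtie2, SAMtools 1.3 and MACS2 with the build mm10, and the deposited files give, for each peak, its place and a whole-number score set by the authors, whose scale, thresholds and control were not given in the sources used here. Scores were ranked within each list only. No peak lay beyond the chromosome ends of GRCm38 (0 of 21 chromosomes). Starts came from the basic transcripts of GENCODE mouse release M21, with the principal start by APPRIS class, and promoter sequences from RefSeq. Scripts ran in Python 3.11.15 with pandas 2.3.3, numpy 2.4.6, matplotlib 3.10.9 and scipy 1.17.1. The calls were tested on simulated peaks.

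The members and gene lists were chosen with earlier results of these data known. Named were the 5 highest, lowest, widest and narrowest members, the 3 largest differences in percentile and 2 in width per comparison and direction, the 5 closest divergent pairs, members sharing a peak, the Mrps18 paralogs, and pathway genes unmarked in a list. Members drawn out for the shape of their peak, Mrps10, Mrpl41 and the pathway examples were chosen after their values were seen. Alternatives were windows of 0 and 5 kb, a stricter score, lists of equal size, merged peaks, outermost starts, nearest peaks, larger size rules, neighbours within 500 bp and promoters of 200 bases, with the comprehensive annotation and a second ZNF143 spelling added after seeing the data.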

Additional observations from a re-analysis of the deposited data

How the results depend on the processing

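No paired analysis was possible because no condition had more than 1 list, and no list could be left out of a group. Of 271 values recomputed under an alternative, 236 stayed within 1.5 times the count or within the 95% interval of the median. The comprehensive annotation, the 5 kb window and the nearest peak moved none. With weaker peaks left out up to the pooled median score, ranks were taken among fewer, stronger peaks, and the members' median percentile was 77.3 in Q7SST and 78.2 in Q111SST, and 60.0, 76.2, 65.0 and 79.0 with cyproheptadine, loxapine, DKI and meclizine. The members past 5 points then numbered 34 in Q7SST, 38 with loxapine and 33 with meclizine (62.3%, 60.9% and 55.7% of all genes). Only with meclizine were more members higher than lower. Members lost numbered 1, 1 and 2 with cyproheptadine, loxapine and DKI (5.84%, 1.65% and 5.9% of all genes). With lists of equal size the median was 86.5 in Q111SST, 82.2 with loxapine and 85.3 with meclizine, and 34 members passed 5 points with loxapine (54.8% of all genes). When the peak had to cover a start, 1, 2, 1 and 3 members were lost in Q7SST, cyproheptadine, loxapine and DKI (2.89%, 7.05%, 4.38% and 5.22% of all genes), and 1 member changed width with loxapine (11.2%), as also with merged peaks (16.8%). With outermost starts 1 member was gained in Q7SST (3.59%). A rule of 10 points left 7, 15, 2, 23 and 5 members in Q7SST, cyproheptadine, loxapine, DKI and meclizine (21.5%, 29.6%, 16.4%, 42.7% and 14.2% of all genes), and a rule of 1.5 times in width left 0, 2, 1, 8 and 1 (12%, 16.5%, 10.6%, 19.7% and 8.08%). In the 200 bases nearest the start TATAAA was in 2 promoters (2.67%). The shares there were 8.91% of all promoters and 3.81% of those of genes marked in all 6 lists. The second ZNF143 spelling was in 5 of 75 promoters of 300 bases. It was in 4 of their 200 bases nearest the start (5.33%, against 0.794% and 1.31%). The causes were not tested where the alternative's construction does not show them. Depth is unknown, so a difference in rank between lists can carry a difference in depth or enrichment, and 1 list per condition gives no replicate spread.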
